A study of Mus musculus with 54 samples.

Results

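The proximal small intestinal epithelium of the mouse fetus was compared between embryonic day (E) 16.5 and E13.5. The members are 6 of the 54 libraries of the series, chosen by their titles: 3 libraries of proximal epithelium at E16.5 and 3 at E13.5. At E16.5 the intestine had been cut into 5 equal sections, and proximal means the first of them. At E13.5 it had been cut into 3 regions, and proximal means the first of those, so the earlier samples cover a larger share of the organ. All 6 libraries were made from EpCAM+ cells (epithelial cell adhesion molecule) that were negative for the dead-cell dye DAPI, for the endothelial antigen CD31 and for the blood cell antigen CD45. The fetuses carry the strain label C57Bl/6J, no transgene is given for them, and the treatment label of all 6 libraries reads none. The study's model takes the number of a library as its mother, so the 3 libraries of a stage stand for separate mothers. Whether a library holds cells of 1 fetus or of several is not given in the sources used here. Epithelium of the distal intestine, with 3 libraries per stage, served to test where the proximal difference departs from the distal one.

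Between these ages the gut tube of the mouse changes from a thick pseudostratified layer with a smooth lumen to a single layer of columnar cells that covers villi. Hedgehog ligands from the epithelium signal to the mesenchyme, which clusters beneath the epithelium as villi emerge, and dividing cells become restricted to the pockets between villi. Absorptive enterocytes, goblet cells and hormone-producing enteroendocrine cells appear at the same time, proximal before distal. Enterocytes carry a brush border of microvilli with digestive enzymes, and they take up lipid and export it as lipoproteins. The comparison asked which genes distinguish the proximal epithelium before and after this change.

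Expression is given as RPKM (reads scaled by the length of the gene in kilobases and by the depth of the library). The stages were deposited in separate tables that had been scaled on their own, so the values were joined by gene and rescaled for each library over genes with at least 1 RPKM in every library. Stage is therefore confounded with table, experiment and section size, and these cannot be told apart by the comparison of 3 with 3 libraries. Reads recovered from RPKM numbered 16300000 to 24900000 per library. They cover all genes of the E16.5 table and, at E13.5, the genes held by both tables. For a gene with a length of 1 kb a value of 1 RPKM equalled 16.25 to 24.75 reads. Differences are on the scale log2(rescaled RPKM + 0.5), E16.5 minus E13.5, given ± SE, and understate the change of genes with low values. A gene was called where the adjusted p of limma (treat, minimum log2 difference 0.5, Benjamini-Hochberg over all genes tested) was under 0.05. Values of single genes are listed in the order of libraries 1, 2 and 3 of a stage, and means are ± SD with n = 3.

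Of 12512 genes tested, 2074 (16.6%) were higher and 1667 (13.3%) were lower at E16.5, in all 29.9%. Among the called genes, 506 were more than 4-fold higher and 277 more than 4-fold lower, and in all 3741 the libraries of the stages did not overlap. Across all genes tested, 36.1% had E16.5 libraries wholly above and 37.6% wholly below the E13.5 libraries, so separation of the 3 and 3 libraries is common here and is not by itself a mark of a gene. The split of the calls depended on the scaling between the tables. With RPKM as deposited, 1601 genes were higher and 2371 lower (40.3% of calls higher, against 55.4% after rescaling), and the median log2 difference of all genes was -0.19, against -0.01 after rescaling. Gene groups are read against these shares. The filter asked for 1 RPKM in 3 of the 6 libraries, so a gene present at only one stage could enter the test through that stage and then had to differ. Where this changes the count of a group by more than 1.5 times, the count among genes with at least 1 RPKM in all 6 libraries is given beside it, and with that filter 1617 of 11007 genes were higher and 1158 lower.

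The sort was checked first. Epcam, the antigen used for sorting, had 571, 554 and 569 RPKM at E16.5, against 366, 410.5 and 412 RPKM at E13.5. The difference of 0.51 ± 0.10 was not called (adjusted p = 0.939). Over 14 genes of epithelial identity, the summed level was 2665 to 2750 RPKM at E16.5 and 1372 to 1844 RPKM at E13.5. Of the 14, 4 were higher (Vil1, Krt19, Elf3 and Cldn7) and none was lower, and Elf3 and Cldn7 were not called with RPKM as deposited. Of 13 endothelial markers only Esam was in both tables, at 0.215 to 0.328 RPKM at E16.5 and 0.111 to 0.409 RPKM at E13.5. The 3 of 12 blood and immune cell markers in both tables summed to 2.30 to 3.31 RPKM at E16.5 and 2.11 to 4.53 RPKM at E13.5. In bulk samples such as these, fewer cells of a type and less RNA per cell cannot be told apart.

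Genes of neighbouring tissues were detected, and some of their sums differed between the stages. Pancreatic enzyme genes were set aside from all tests. Their sum over the 9 of 38 genes held by both tables was 1052, 2196 and 1183 RPKM in the E16.5 libraries, against 187, 135.1 and 18.8 RPKM in the E13.5 libraries. Distal epithelium had 26.1 to 28.9 RPKM at E16.5 and 11.9 to 13.03 RPKM at E13.5. Red blood cell genes (5 of 12 in both tables) summed to 395 to 608 RPKM at E16.5 and to 4.32 to 80.8 RPKM at E13.5. Stomach markers summed to 11.4, 11.7 and 54.7 RPKM in the E16.5 libraries, against 7.80, 21.2 and 16.7 RPKM in the E13.5 libraries, so E16.5 library 3 stood apart from both other E16.5 libraries. Mesenchymal genes (12 of 20) summed to 69.4 to 91.1 RPKM at E16.5 and to 82.3 to 107 RPKM at E13.5. Smooth muscle genes (8 of 10) summed to 17.4 to 30.8 RPKM at E16.5 and to 10.9 to 16.1 RPKM at E13.5. Of these, Myh11 and Actg2 were called higher and lost the call in at least 4 of the 6 fits that left out 1 library. The mesothelial list summed to 448 to 503 RPKM at E16.5 and to 145 to 253 RPKM at E13.5, a sum that includes Krt19, a keratin of the epithelium itself, and Upk3b of mesothelium was higher (2.62 ± 0.17). The part of these tissues in the gene differences was not tested, and their values are repeated beside the groups they move with.

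**Figure D1:**
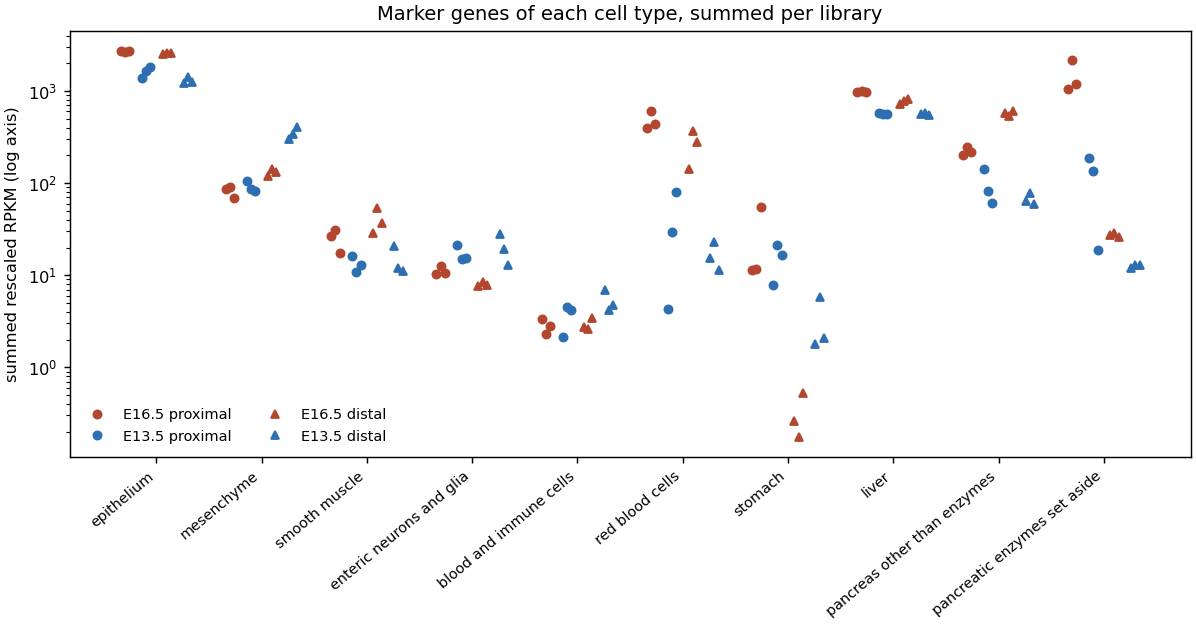
Summed rescaled RPKM (log axis) of the marker genes of each cell type in every library, with E16.5 proximal, E13.5 proximal, E16.5 distal and E13.5 distal libraries from left to right within each cell type. Each point is 1 library. The pancreatic enzyme genes reach 1052 to 2196 RPKM in the E16.5 proximal libraries, above the 18.8 to 187 RPKM of the E13.5 proximal libraries.

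The 2 genes that mark this comparison moved in opposite directions. Fabp1 (gene ID 14080), which encodes the liver-type fatty acid binding protein that carries fatty acids inside enterocytes, had 1086, 1662 and 1904 RPKM in the E16.5 libraries, against 30.01, 31.8 and 27.0 RPKM in the E13.5 libraries. It was already detected at E13.5, and its levels at the 2 stages did not overlap. The difference was 5.65 ± 0.20 (adjusted p = 6.53e-07). Shh (gene ID 20423), which encodes a secreted Hedgehog ligand, had 4.13, 3.95 and 3.04 RPKM in the E16.5 libraries, against 86.0, 76.5 and 88.4 RPKM in the E13.5 libraries. The fall of Shh was uniform across libraries, with a difference of -4.33 ± 0.11 (adjusted p = 1.18e-07).

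**Figure D2:**
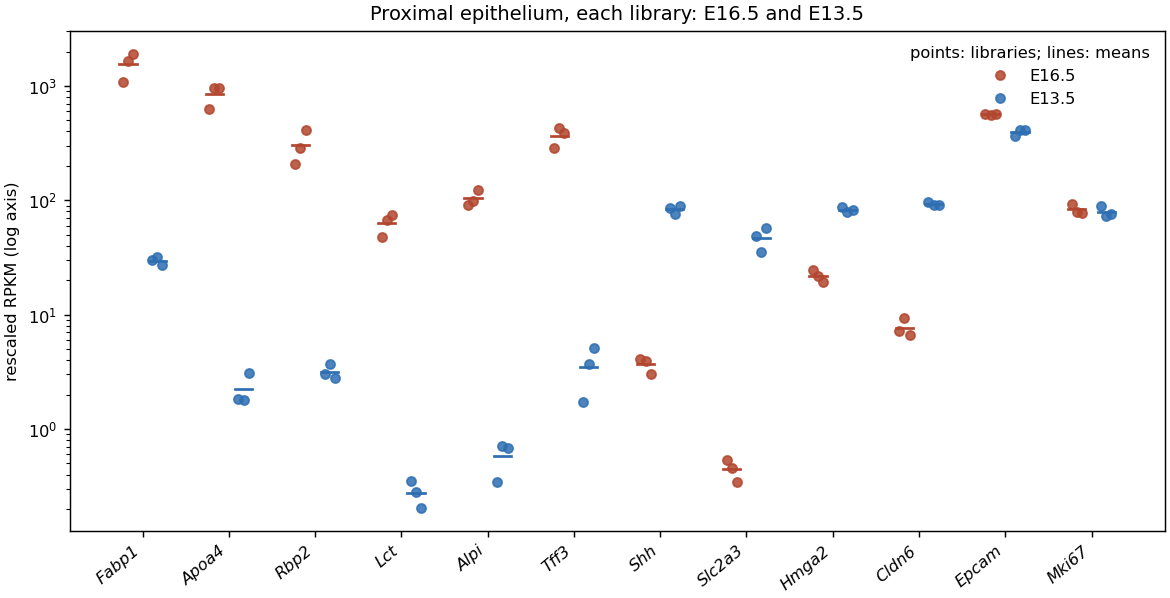
Rescaled RPKM (log axis) of 12 named genes in each of the 6 libraries, E16.5 to the left of E13.5 for each gene, with points for libraries and lines for means. Fabp1, Apoa4, Rbp2, Lct, Alpi and Tff3 lie higher at E16.5, Shh, Slc2a3, Hmga2 and Cldn6 lie lower, and the points of Mki67 overlap between stages.

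Lipid and brush border genes gave some of the largest rises, and the sequence before the start of 4 of them is shown because the results turn on these genes. The windows are the 250 bases before the annotated start, from RefSeq on the GRCm38.p6 build, written on the strand of the gene. Capitals mark every match, on either strand, to 4 short motifs of factors that act in the intestine. The motif of HNF4 is searched here as CAAAGTCCA, that of HNF1 as GTTAAT, that of GATA factors as AGATAA, and that of CDX factors as TTTAT. Adjoining matches can share bases, as in the Lct window, where TTTAT and the reverse complement of AGATAA overlap.
Fabp1, chr6:71199629-71199878, plus strand: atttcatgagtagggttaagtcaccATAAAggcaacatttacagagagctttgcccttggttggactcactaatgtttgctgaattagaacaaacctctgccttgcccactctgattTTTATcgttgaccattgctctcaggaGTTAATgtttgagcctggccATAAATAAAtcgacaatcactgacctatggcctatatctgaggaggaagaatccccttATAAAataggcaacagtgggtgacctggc
Lct, chr1:128328319-128328568, minus strand: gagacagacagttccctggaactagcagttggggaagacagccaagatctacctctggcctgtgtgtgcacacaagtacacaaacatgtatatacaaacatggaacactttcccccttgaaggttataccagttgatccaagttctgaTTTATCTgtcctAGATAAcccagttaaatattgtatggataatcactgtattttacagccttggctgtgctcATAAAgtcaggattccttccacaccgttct
Alpi, chr1:87101607-87101856, minus strand: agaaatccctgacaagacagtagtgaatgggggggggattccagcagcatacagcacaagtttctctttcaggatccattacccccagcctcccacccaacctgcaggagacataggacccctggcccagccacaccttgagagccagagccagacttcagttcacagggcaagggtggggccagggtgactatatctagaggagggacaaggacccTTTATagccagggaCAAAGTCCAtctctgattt
Rbp2, chr9:98490287-98490536, plus strand: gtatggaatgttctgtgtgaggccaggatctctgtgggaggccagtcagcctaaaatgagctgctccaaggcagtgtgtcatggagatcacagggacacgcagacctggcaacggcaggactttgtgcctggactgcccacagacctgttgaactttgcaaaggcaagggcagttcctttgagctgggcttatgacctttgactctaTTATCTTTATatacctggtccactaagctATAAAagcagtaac
The Fabp1 window holds 1 match to GTTAAT and 5 to TTTAT, the Lct window 2 to AGATAA and 2 to TTTAT, the Alpi window 1 to CAAAGTCCA and 1 to TTTAT, and the Rbp2 window 1 to AGATAA and 2 to TTTAT. Among windows of the same length before 27025 genes, CAAAGTCCA occurs in 0.4%, GTTAAT in 6.58%, AGATAA in 10.2% and TTTAT in 38.1%. Of the 20 genes of the lipid absorption group with such a window, 0, 3, 3 and 10 hold these motifs in the same order. Of the 17 brush border hydrolases with a window, 1, 2, 4 and 10 do. These are matches of letters and were not tested as binding sites.

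Genes of lipid absorption and lipoprotein assembly were higher at E16.5 almost without exception. Of 26 genes of the group, 20 were tested and 19 were higher, against 16.6% of all genes tested, and none was lower. Their median log2 difference was 2.90, against -0.01 for all genes. Apoa4, an apolipoprotein of chylomicrons, had 624, 966 and 965 RPKM in the E16.5 libraries, against 1.85, 1.81 and 3.06 RPKM in the E13.5 libraries. On this scale it showed the largest rise of all called genes (not so with limma-voom), 8.28 ± 0.24 (adjusted p = 2.04e-06). Rbp2, which binds retinol in enterocytes, had 207, 288 and 411 RPKM in the E16.5 libraries, against 3.05, 3.68 and 2.81 RPKM in the E13.5 libraries, a difference of 6.31 ± 0.25 (adjusted p = 8.27e-06). Mttp, which loads lipid onto apolipoprotein B, averaged 286 ± 29.4 RPKM at E16.5 and 6.47 ± 0.873 RPKM at E13.5. Apob, the structural protein of these particles, had 113 ± 4.88 RPKM at E16.5 and 29.5 ± 2.82 RPKM at E13.5. Of the enzymes that rebuild triglyceride, all tested were higher, with a log2 difference of 3.26 for Mogat2, 3.31 for Dgat2 and 2.70 for Dgat1. Npc1l1, the cholesterol uptake transporter, averaged 18.1 ± 3.47 RPKM at E16.5 and 0.532 ± 0.0711 RPKM at E13.5. Lipa, a lysosomal lipase, was the member that was not called (-0.33 ± 0.15).

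The digestive enzymes of the brush border rose with them. Of 17 hydrolases tested, 15 were higher and 1 was lower, with a median of 3.08. With at least 1 RPKM in all 6 libraries 6 were tested and all 6 were higher. Lct, which encodes lactase, had 47.7, 67.1 and 74.3 RPKM in the E16.5 libraries, against 0.351, 0.281 and 0.204 RPKM in the E13.5 libraries. Lactase RNA was thus under 1 RPKM in every E13.5 library (6.33 ± 0.16, adjusted p = 1.28e-07). Alpi, the intestinal alkaline phosphatase, had 90.1, 98.9 and 124 RPKM in the E16.5 libraries, against 0.341, 0.706 and 0.687 RPKM in the E13.5 libraries (6.61 ± 0.17, adjusted p = 1.91e-07). Alpl, the tissue-nonspecific alkaline phosphatase, went the other way. It had 0.198, 0.291 and 0.315 RPKM in the E16.5 libraries, against 13.0, 10.6 and 10.7 RPKM in the E13.5 libraries (-3.95 ± 0.13, adjusted p = 2.62e-07). The peptidases Mep1a, Mep1b and Mme had log2 differences of 4.73, 4.42 and 4.17. Anpep and Dpp4, peptidases already present at E13.5, rose to 285 ± 29.2 RPKM at E16.5 against 48.3 ± 5.72 RPKM at E13.5 for Anpep, and to 29.5 ± 0.910 RPKM at E16.5 against 14.4 ± 1.11 RPKM at E13.5 for Dpp4.

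Structural genes of the microvillus and transporters of nutrients showed the same direction with more exceptions. Of 20 microvillus genes, 15 were higher and none lower (median 2.08). Eps8l3, an actin regulator of the EPS8 family, averaged 136 ± 8.25 RPKM at E16.5 and 2.64 ± 1.23 RPKM at E13.5, and Cdhr2, a protocadherin of the links between microvilli, averaged 48.9 ± 6.29 RPKM at E16.5 and 2.96 ± 0.601 RPKM at E13.5. Vil1, the actin bundler villin, was present before villi, with 159, 172 and 175 RPKM in the E16.5 libraries, against 25.9, 35.5 and 39.7 RPKM in the E13.5 libraries. Ezrin (Ezr) is the main membrane linker of microvilli and was not called, at 229 ± 2.79 RPKM at E16.5 and 174 ± 34.9 RPKM at E13.5. Of 26 transporters, 17 were higher and 1 lower (median 1.54), and 11 of 17 were higher among those with at least 1 RPKM in all 6 libraries. Slc5a1, the sodium-glucose cotransporter, had a difference of 4.03 ± 0.21, Slc3a1 and Slc7a9, the 2 chains of the cystine transporter, 4.46 ± 0.22 and 3.87 ± 0.16, and the peptide transporter Slc15a1 3.41 ± 0.23. Amn, the amnionless subunit of the vitamin B12 receptor, averaged 32.6 ± 3.26 RPKM at E16.5 and 0.998 ± 0.402 RPKM at E13.5, and its partner Cubn 7.82 ± 1.02 RPKM at E16.5 and 1.68 ± 0.591 RPKM at E13.5. The transporter that fell was Slc2a3, the glucose transporter GLUT3, with 0.531, 0.455 and 0.345 RPKM in the E16.5 libraries, against 48.4, 35.0 and 57.1 RPKM in the E13.5 libraries (-5.63 ± 0.17, adjusted p = 2.88e-07). On this scale it was the largest fall of all called genes, but with a constant of 0.1 Pth1r fell by more (-6.75, against -6.42 for Slc2a3), and limma-voom put both behind other genes of low level. Slc2a1, the more widely used glucose transporter GLUT1, was not called (0.29 ± 0.13).

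**Figure D3:**
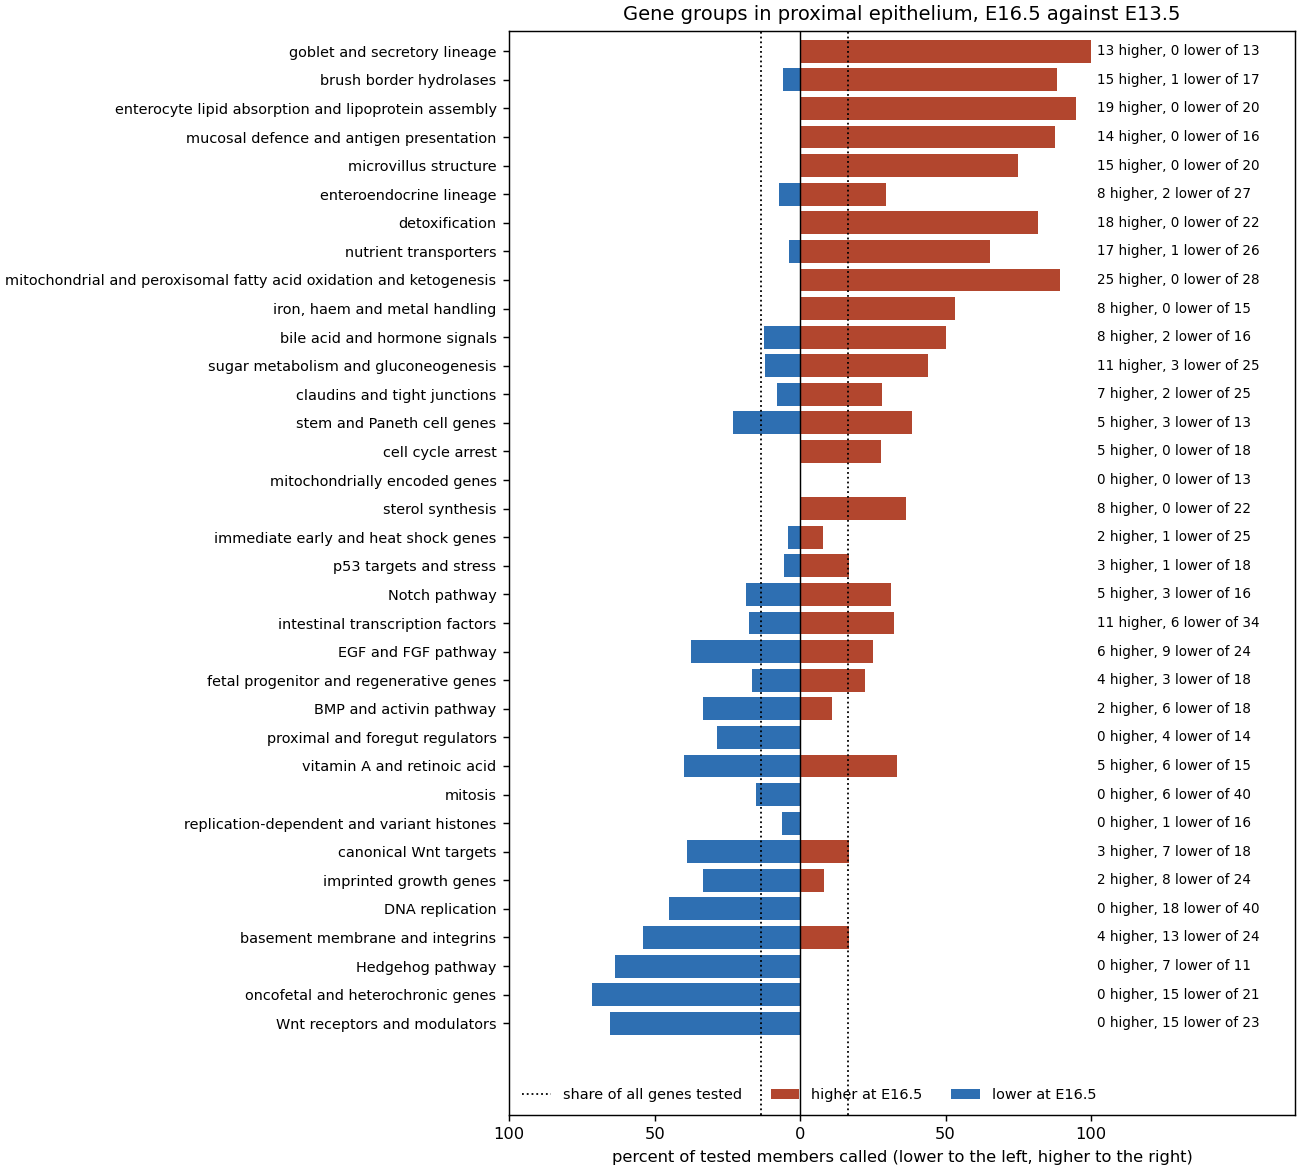
Percent of the tested members of each gene group that were called higher (right) or lower (left) at E16.5, with the counts beside the bars and groups in order of their median log2 difference. Dotted lines give the shares of all genes tested, 16.6% higher and 13.3% lower. All 13 tested goblet genes were higher, and 15 of 21 oncofetal genes and 15 of 23 Wnt receptors and modulators were lower.

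Oxidation of fatty acids, detoxification and the forms of glycolytic enzymes differed as well. Of 28 tested genes of mitochondrial and peroxisomal fatty acid oxidation and ketogenesis, 25 were higher and none lower (median 1.52). Ehhadh, a peroxisomal enzyme, averaged 12.8 ± 2.35 RPKM at E16.5 and 1.32 ± 0.176 RPKM at E13.5, and Ppara, the nuclear receptor that activates many of these genes, 9.75 ± 0.471 RPKM at E16.5 and 0.967 ± 0.116 RPKM at E13.5. The 13 genes encoded by the mitochondrial genome were not called in either direction. Their median was 0.49, close to the minimum difference of 0.5, and 0.11 to 0.75 over the alternative settings. Of 22 detoxification genes, 18 were higher and none lower (median 1.82), and 10 of 13 were higher with at least 1 RPKM in all 6 libraries. Adh1, an alcohol dehydrogenase that also oxidizes retinol, had 151, 186 and 194 RPKM in the E16.5 libraries, against 0.455, 1.08 and 0.430 RPKM in the E13.5 libraries (7.30 ± 0.22, adjusted p = 1.29e-06). Abcc2, an apical export pump for conjugates, averaged 26.2 ± 4.71 RPKM at E16.5 and 0.438 ± 0.159 RPKM at E13.5. Members of the Gstm, Ugt2b and Cyp2c families share near-identical sequence, and reads with several sites could be counted, so their single values are uncertain.

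In sugar metabolism 11 of 25 genes were higher (7 with RPKM as deposited) and 3 were lower (median 0.60). The forms of pyruvate kinase moved apart. Pklr, the liver and red blood cell form, had 74.0, 85.9 and 93.7 RPKM in the E16.5 libraries, against 5.38, 6.49 and 6.99 RPKM in the E13.5 libraries (3.65 ± 0.12). Pkm, the form of many dividing tissues, averaged 173 ± 26.7 RPKM at E16.5 and 330.0 ± 5.55 RPKM at E13.5 (-0.94 ± 0.12, adjusted p = 0.0132). Pfkp, a phosphofructokinase, rose to 39.1 ± 0.761 RPKM at E16.5, against 1.89 ± 0.701 RPKM at E13.5. Hexokinase 2 (Hk2) and lactate dehydrogenase B (Ldhb) fell by 1.58 and 1.45 on the log2 scale. Gapdh was not called, at 373 ± 33.4 RPKM at E16.5 and 377 ± 3.65 RPKM at E13.5. Of 22 genes of sterol synthesis 8 were higher and none lower (median 0.49). Insig1, a brake on this pathway, showed the largest difference (2.06 ± 0.12) and Nsdhl the next (0.98 ± 0.085). The count of higher genes varied from 3 to 9 over the alternative settings that kept the minimum change of the test.

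Genes that handle metals included 8 of 15 that were higher and none that was lower (median 0.98). Mt1, a metallothionein, had 447, 465 and 418 RPKM in the E16.5 libraries, against 27.9, 27.7 and 15.2 RPKM in the E13.5 libraries (4.25 ± 0.23, adjusted p = 1.8e-05), and its relative Mt2 rose by 3.74 on the log2 scale. The ferritin heavy chain Fth1 averaged 470.1 ± 27.4 RPKM at E16.5 and 141 ± 3.55 RPKM at E13.5, and the iron importer Slc11a2 9.66 ± 2.92 RPKM at E16.5 and 2.67 ± 0.400 RPKM at E13.5. Ferroportin (Slc40a1), which exports iron, was not called (0.18 ± 0.11). Red blood cell genes were also higher at E16.5 (395 to 608 RPKM, against 4.32 to 80.8 RPKM at E13.5), and their part in these differences was not tested. Hbb-bs, the gene of this marker list that was called, had 108, 157 and 119 RPKM in the E16.5 libraries, against 0.653, 7.74 and 10.04 RPKM in the E13.5 libraries, and lost its call without any 1 of the E16.5 libraries.

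Vitamin A genes moved in both directions. Of 15 tested, 5 were higher and 6 lower (median -0.48), and with at least 1 RPKM in all 6 libraries 2 of 9 were higher and 2 lower. Beside Rbp2 those that rose were Lrat, which esterifies retinol for storage (3.90 ± 0.17), Bco2, which cleaves carotenoids (3.24 ± 0.19), Aldh1a1, which oxidizes retinal to retinoic acid (3.92 ± 0.50), and the saturase Retsat (2.19 ± 0.089). Those that fell included the receptor Rarb (-2.71 ± 0.17) and Crabp2, which carries retinoic acid to its receptors (-2.46 ± 0.31). Rarb, itself a target of retinoic acid, had 0.319, 0.223 and 0.460 RPKM in the E16.5 libraries, against 6.02, 4.74 and 4.17 RPKM in the E13.5 libraries.

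Goblet cell genes rose without exception among those tested. All 13 tested members of 25 were higher (median 3.41), and 9 of 9 were higher with at least 1 RPKM in all 6 libraries. Tff3, a trefoil peptide secreted with mucus, had 286, 430.2 and 384 RPKM in the E16.5 libraries, against 1.74, 3.69 and 5.13 RPKM in the E13.5 libraries (6.59 ± 0.38, adjusted p = 0.000117). Agr2, a chaperone of mucin folding, averaged 240.1 ± 68.7 RPKM at E16.5 and 7.78 ± 4.91 RPKM at E13.5, and Fcgbp, a component of mucus, 470.1 ± 109.9 RPKM at E16.5 and 14.5 ± 6.43 RPKM at E13.5. Spdef, a transcription factor of goblet cell maturation, was higher as well (1.65 ± 0.19). Muc13, a membrane mucin that enterocytes share, had 662, 689.6 and 813 RPKM in the E16.5 libraries, against 18.5, 35.8 and 19.9 RPKM in the E13.5 libraries.

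Genes of mucosal defence and antigen presentation were higher in 14 of 16 cases and lower in none (median 2.10), and in 9 of 11 cases with at least 1 RPKM in all 6 libraries. Ccl25, the chemokine that draws lymphocytes to the small intestine, had 96.3, 85.9 and 96.3 RPKM in the E16.5 libraries, against 2.56, 3.04 and 3.82 RPKM in the E13.5 libraries (4.69 ± 0.12, adjusted p = 1.2e-07). Reg4, a secreted lectin of the regenerating family, rose by 4.39 on the log2 scale. The innate sensor Nlrp6 averaged 62.9 ± 4.43 RPKM at E16.5 and 2.79 ± 0.707 RPKM at E13.5. Pigr, the receptor that carries immunoglobulin A across the epithelium, averaged 8.32 ± 1.16 RPKM at E16.5 and 0.175 ± 0.0806 RPKM at E13.5. Beta-2-microglobulin (B2m), the light chain of class I molecules, averaged 56.1 ± 6.23 RPKM at E16.5 and 13.3 ± 2.31 RPKM at E13.5. Dmbt1, a secreted scavenger receptor of mucosal surfaces, had 516, 476 and 547 RPKM in the E16.5 libraries, against 1.75, 3.47 and 3.77 RPKM in the E13.5 libraries (7.25 ± 0.25). The sum of the 3 of 12 blood and immune cell markers held by both tables was 2.11 to 4.53 RPKM across the 6 libraries. Of the 2 that were tested, Cd68 was lower, a call lost without E13.5 library 2 or 3 or any 1 of the E16.5 libraries.

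Hormone and enteroendocrine genes had mostly positive differences, but the number called depended on single libraries. Of 27 tested, 8 were higher and 2 lower (median 1.98). Cck, the hormone cholecystokinin, had 335, 445 and 408 RPKM in the E16.5 libraries, against 12.3, 7.39 and 1.75 RPKM in the E13.5 libraries (6.01 ± 0.69, adjusted p = 0.00222). Sct, secretin, had 149.6, 227 and 204 RPKM in the E16.5 libraries, against 4.42, 2.85 and 4.97 RPKM in the E13.5 libraries (5.41 ± 0.23, adjusted p = 8.24e-06). Chga, chromogranin A of secretory granules, had 74.2, 86.3 and 75.7 RPKM in the E16.5 libraries, against 22.3, 8.59 and 2.01 RPKM in the E13.5 libraries. The E13.5 libraries thus spread widely while the E16.5 libraries lay close together. The difference of Chga was 3.30 ± 0.84 (adjusted p = 0.0484), and the call was lost in 4 of the 6 fits that left out 1 library. Neurog3, the transcription factor that starts the endocrine lineage, had 16.9, 20.01 and 14.4 RPKM in the E16.5 libraries, against 16.2, 9.88 and 2.01 RPKM in the E13.5 libraries, with overlap and no call (adjusted p = 0.554). Gcg, the gene of glucagon and GLP-1, had 27.4, 32.2 and 29.8 RPKM in the E16.5 libraries, against 27.0, 5.33 and 2.31 RPKM in the E13.5 libraries, and was not called (adjusted p = 0.261). E13.5 library 1, the highest for Chga, Neurog3 and Gcg, was also the highest of its stage for pancreatic enzymes (187, 135.1 and 18.8 RPKM) and for other pancreatic markers (141, 83.0 and 60.2 RPKM, a list that includes Gcg). Glucagon and chromogranin A are made by pancreatic islets as well, and the part of pancreatic cells was not tested. Without E13.5 library 1, 18 of the 27 were higher, without E13.5 library 2 or any 1 E16.5 library 5 were, and with at least 1 RPKM in all 6 libraries 2 of 13 were. The 2 genes that fell, Peg3 and Stmn2, are not hormone genes. Peg3 is an imprinted zinc finger gene and Stmn2 a microtubule regulator of neurons, whose markers summed to 10.2 to 12.5 RPKM at E16.5 and to 15.1 to 21.2 RPKM at E13.5.

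Genes of the Hedgehog pathway fell or were not called. Of 11 tested, 7 were lower, against 13.3% of all genes, and none was higher (median -0.90), and 4 of 8 were lower with at least 1 RPKM in all 6 libraries. Shh is described above. Ihh, the other ligand of the intestinal epithelium, had 33.4, 30.8 and 29.0 RPKM in the E16.5 libraries, against 28.1, 33.0 and 44.4 RPKM in the E13.5 libraries, with overlap and no call (-0.15 ± 0.16). At E13.5 the mean of Shh was 83.6 RPKM and that of Ihh 35.1 RPKM, while at E16.5 Shh had 3.71 RPKM and Ihh 31.1 RPKM. The signal transducer Smo had 9.33, 8.41 and 5.92 RPKM in the E16.5 libraries, against 28.0, 24.8 and 31.1 RPKM in the E13.5 libraries (-1.78 ± 0.16, adjusted p = 0.000281). Kif7, a kinesin that regulates Gli factors, and Gli3, a Gli factor, had differences of -2.63 ± 0.13 and -2.15 ± 0.15. Ptch1, the receptor and a target of the pathway, averaged 6.67 ± 0.251 RPKM at E16.5 and 12.9 ± 1.58 RPKM at E13.5 (-0.90 ± 0.10).

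**Figure D4:**
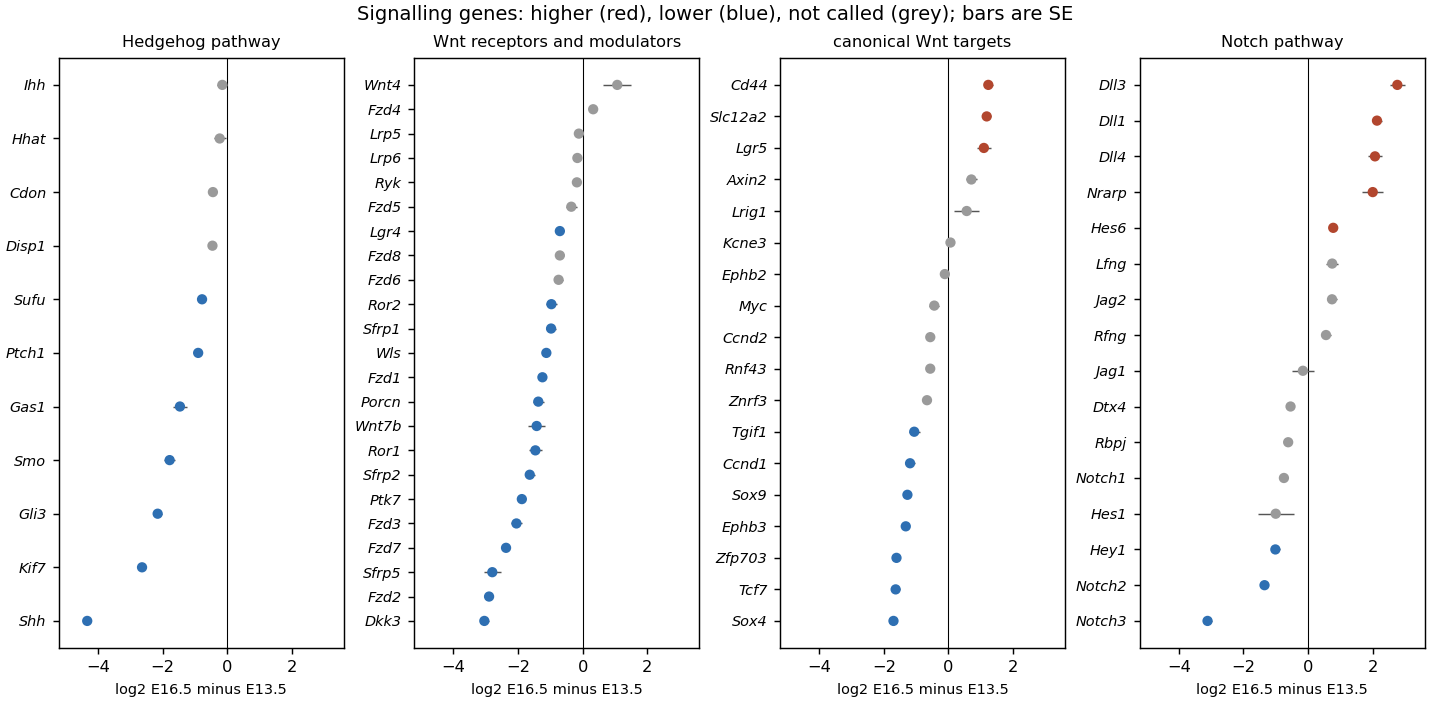
Log2 difference, E16.5 minus E13.5, of every tested gene of the Hedgehog pathway, Wnt receptors and modulators, canonical Wnt targets and the Notch pathway, with bars for SE. Red marks genes called higher, blue genes called lower and grey genes not called. Shh lies at -4.33 and Ihh at -0.15, and no Wnt receptor or modulator is red.

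Receptors and modulators of the Wnt pathway were lower in 15 of 23 cases and higher in none (median -1.12). With at least 1 RPKM in all 6 libraries 5 of 14 were lower. Sfrp5, a secreted Wnt antagonist, had 31.4, 23.7 and 18.96 RPKM in the E16.5 libraries, against 141, 152 and 232 RPKM in the E13.5 libraries (-2.79 ± 0.25, adjusted p = 0.000439), and Dkk3, a secreted protein of the Dickkopf family, fell by 3.04 on the log2 scale. Among the Frizzled receptors, Fzd2, Fzd7 and Fzd3 fell by 2.89, 2.37 and 2.05 on the log2 scale, and Fzd5, the most abundant Frizzled of those tested, was not called at 24.5 ± 2.99 RPKM at E16.5 and 31.8 ± 7.12 RPKM at E13.5. The coreceptors Lrp5 and Lrp6 were not called. Wls and Porcn, which release and acylate Wnt ligands, were lower, with 7.77 ± 0.597 RPKM at E16.5 and 17.5 ± 0.510 RPKM at E13.5 for Wls. Of 18 canonical Wnt targets 3 were higher, near the 16.6% of all genes tested, and 7 were lower, against 13.3% of all genes (median -0.56). With 1 RPKM in all 6 libraries 1 of 16 was higher. Axin2, the target most often used as a readout, had 7.34, 6.39 and 5.45 RPKM in the E16.5 libraries, against 4.43, 4.08 and 2.77 RPKM in the E13.5 libraries. Its libraries did not overlap, but the difference of 0.71 ± 0.17 was not called (adjusted p = 0.332). Sox4 and Tcf7 fell by 1.70 and 1.63 on the log2 scale, and Sox9 and Ccnd1 by 1.27 and 1.19. Cd44, Slc12a2 and Lgr5 rose. The call of Cd44 was lost with 12 libraries in the fit (adjusted p = 0.204), where 1 of 22 targets was higher and where those of Sfrp5 and Ccnd1 were lost as well (adjusted p of 0.0531 and 0.0565), and the call of Lgr5 is given with the stem cell genes.

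Stem and Paneth cell genes gave 5 higher and 3 lower of 13 tested (median 0.56), and 2 of 10 were higher with at least 1 RPKM in all 6 libraries. Without E16.5 library 2 or E13.5 library 3, 3 were higher. Olfm4, a secreted glycoprotein of crypt base stem cells, had 26.8, 23.8 and 17.7 RPKM in the E16.5 libraries, against 0.555, 0.503 and 0.210 RPKM in the E13.5 libraries (4.66 ± 0.20, adjusted p = 1.22e-06). Lgr5, the stem cell receptor for R-spondins, stayed low, with 2.79, 2.25 and 1.55 RPKM in the E16.5 libraries, against 0.773, 1.02 and 0.487 RPKM in the E13.5 libraries. Its difference of 1.09 ± 0.22 was close to the threshold (adjusted p = 0.043) and the call was lost in 4 of the 6 fits that left out 1 library. Smoc2 rose by 1.98, while Msi1 and Cdk6 fell by 1.57 and 1.26 on the log2 scale. Genes used as markers of fetal progenitors did not share a direction, with 4 of 18 higher and 3 lower (5 without E13.5 library 1) and a median whose sign changed with the filter and with the libraries left out. Areg, the EGF receptor ligand amphiregulin, had 40.1, 28.9 and 41.2 RPKM in the E16.5 libraries, against 0.190, 4.33 and 1.15 RPKM in the E13.5 libraries (4.38 ± 0.75, adjusted p = 0.0112), a call lost without E16.5 library 1 or E13.5 library 3. Gja1, connexin 43, had 4.53, 3.47 and 4.85 RPKM in the E16.5 libraries, against 30.6, 24.1 and 22.6 RPKM in the E13.5 libraries (-2.46 ± 0.15). S100a6, a calcium binding protein, rose by 2.10 on the log2 scale, and Ctgf fell by 1.66, a call lost in 4 of the 6 fits that left out 1 library.

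In the Notch pathway the Delta-like ligands tested rose and 2 receptors fell. Of 16 genes 5 were higher and 3 lower, with a median of 0.19 that turned negative without the filter on low values and with 1 RPKM in all 6 libraries, where 2 of 11 were higher and 1 lower. With RPKM as deposited 6 were lower. Dll1 had 13.6, 15.6 and 16.4 RPKM in the E16.5 libraries, against 3.89, 3.30 and 2.26 RPKM in the E13.5 libraries (2.13 ± 0.17, adjusted p = 6.59e-05), and the ligands Dll3 and Dll4 had differences of 2.76 ± 0.23 and 2.07 ± 0.21. Notch3 fell to 0.901 ± 0.191 RPKM at E16.5, against 11.5 ± 0.872 RPKM at E13.5, and Notch2 to 5.95 ± 0.623 RPKM at E16.5, against 15.95 ± 1.49 RPKM at E13.5. Notch1 was just outside the threshold (-0.75 ± 0.10, adjusted p = 0.0542). Hes1, the best known target, had 32.3, 31.6 and 33.7 RPKM in the E16.5 libraries, against 29.1, 126 and 77.0 RPKM in the E13.5 libraries, with overlap and no call (adjusted p = 0.536).

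Genes of the EGF, FGF and PDGF signals moved in both directions. Of 24 genes 6 were higher and 9 lower, and the median of 0.03 was negative with RPKM as deposited, with quantile normalization, with 1 RPKM in all 6 libraries and without E13.5 library 2. With 1 RPKM in all 6 libraries 2 of 20 were higher and 9 lower, and without E16.5 library 1 or with RPKM as deposited 3 were higher. Those higher were Fgf1 (1.93 ± 0.20) and 5 genes of the EGF family, with Egfr at 6.71 ± 0.0862 RPKM at E16.5 and 2.71 ± 0.332 RPKM at E13.5 and Erbb2 at 22.8 ± 2.59 RPKM at E16.5 and 12.7 ± 1.14 RPKM at E13.5, beside Areg, Ereg and Btc. The call of Erbb2 was lost in 4 of the 6 fits that left out 1 library. Etv4, a factor that FGF signals induce, had the largest fall after Pdgfc (-2.46 ± 0.33). Fgfr1, Fgfr2 and Fgfr4 were lower, as were the FGF-responsive genes Etv5, Spry1 and Spry2, of which Spry1 lost its call in 4 of the 6 fits that left out 1 library and all 3 with 12 libraries in the fit. Fgf9, an epithelial ligand for mesenchyme, had 2.30 ± 0.0814 RPKM at E16.5 and 8.17 ± 0.561 RPKM at E13.5, and Pdgfc, a ligand of PDGFRA, had 2.76, 1.94 and 2.11 RPKM in the E16.5 libraries, against 34.9, 34.3 and 36.4 RPKM in the E13.5 libraries (-3.70 ± 0.11, adjusted p = 1.91e-07). Pdgfa, the other PDGFRA ligand made by gut epithelium, was not called (0.59 ± 0.16).

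In the BMP and activin pathway 2 of 18 genes were higher and 6 lower (median -0.29), and with 1 RPKM in all 6 libraries 3 of 15 were lower. Tgfbr3, a coreceptor, fell by 2.58 on the log2 scale. Target genes differed in direction. Id2 had 50.2, 48.1 and 49.5 RPKM in the E16.5 libraries, against 165.2, 154 and 182 RPKM in the E13.5 libraries (-1.75 ± 0.082). Id1 had 23.6, 26.0 and 26.7 RPKM in the E16.5 libraries, against 13.5, 14.7 and 11.95 RPKM in the E13.5 libraries (0.91 ± 0.091, adjusted p = 0.00445). The call of Id1 was lost with RPKM as deposited (adjusted p = 0.0588) and with 12 libraries in the fit (adjusted p = 0.460). Id3 was also higher (0.96 ± 0.15), a call lost in 4 of the 6 fits that left out 1 library.

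Hormone and bile acid signals were higher in 8 of 16 cases and lower in 2 (median 0.79), and with 1 RPKM in all 6 libraries in 4 of 11. Prlr, the prolactin receptor, had 10.3, 10.3 and 10.3 RPKM in the E16.5 libraries, against 0.620, 0.649 and 0.671 RPKM in the E13.5 libraries (3.24 ± 0.10, adjusted p = 1.91e-07). Slc51a, a chain of the basolateral bile acid exporter, rose by 2.11, and Fgfr4 and Igf1r fell by 1.26 and 0.90 on the log2 scale. Thrb, the beta form of the thyroid hormone receptor, averaged 4.67 ± 0.863 RPKM at E16.5 and 0.870 ± 0.152 RPKM at E13.5. Nr3c1, the glucocorticoid receptor, was not called (0.27 ± 0.078). Pth1r, the parathyroid hormone receptor, was not in this group and fell as well, with 0.163, 0.0621 and 0.146 RPKM in the E16.5 libraries, against 23.7, 20.9 and 26.1 RPKM in the E13.5 libraries (-5.27 ± 0.12, adjusted p = 7.05e-08).

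Transcription factors of the intestine moved in both directions or were not called. Of 34 tested, 11 were higher, 6 lower and 17 not called, and the median of 0.05 turned negative with RPKM as deposited, with quantile normalization and with 1 RPKM in all 6 libraries. In the last case 6 of 27 were higher and 5 lower. Cdx2, the factor that sets intestinal identity, had 60.4, 58.6 and 54.6 RPKM in the E16.5 libraries, against 49.6, 53.8 and 56.7 RPKM in the E13.5 libraries, with overlap, no call, and a difference of 0.12 that was negative with RPKM as deposited and with quantile normalization. Its paralogue Cdx1 had 49.3, 41.6 and 41.2 RPKM in the E16.5 libraries, against 0.455, 0.471 and 1.24 RPKM in the E13.5 libraries (5.24 ± 0.24, adjusted p = 4.95e-06). Both HNF4 nuclear receptors rose. Hnf4g had 62.7, 60.2 and 69.4 RPKM in the E16.5 libraries, against 7.80, 9.41 and 10.4 RPKM in the E13.5 libraries (2.74 ± 0.11), and Hnf4a had 109, 103 and 107 RPKM in the E16.5 libraries, against 33.0, 43.1 and 46.3 RPKM in the E13.5 libraries (1.39 ± 0.12). The bile acid receptor Nr1h4 and the xenobiotic receptor Nr1i2 rose by 3.48 and 2.78 on the log2 scale, and Maf, a leucine zipper factor, by 3.74. Foxa1, a pioneer factor of the endoderm, had 13.4, 12.5 and 16.8 RPKM in the E16.5 libraries, against 51.0, 53.2 and 59.5 RPKM in the E13.5 libraries (-1.91 ± 0.11). Prdm1, which represses adult enterocyte genes before weaning in the mouse, was not called (-0.53 ± 0.094, adjusted p = 0.786).

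Regulators that mark the proximal position were mostly not called. Of 14, none was higher and 4 were lower (2 to 5 over the alternative settings that kept the minimum change of the test). Pdx1, a factor of duodenum and pancreas, had 26.0, 23.8 and 25.2 RPKM in the E16.5 libraries, against 27.0, 21.3 and 26.2 RPKM in the E13.5 libraries. Gata4, a factor of the proximal intestine, had 49.8, 48.1 and 47.4 RPKM in the E16.5 libraries, against 49.6, 57.9 and 66.2 RPKM in the E13.5 libraries. Both overlapped between the stages, and the sign of the Pdx1 difference (0.01) changed with RPKM as deposited, with quantile normalization and in 2 of the fits that left out 1 library. Onecut2 fell to 19.8 ± 1.22 RPKM at E16.5, against 42.7 ± 3.33 RPKM at E13.5 (-1.09 ± 0.081, adjusted p = 0.000272, and 0.392 with 12 libraries in the fit), and Onecut1 and Pitx1 fell by 1.63 and 2.56 on the log2 scale. Because the E13.5 region reaches farther along the gut, the part of its extra length in these differences cannot be told apart from age. Osr2, a zinc finger factor, had 0.453, 0.692 and 0.283 RPKM in the E16.5 proximal libraries, against 4.17, 4.73 and 3.15 RPKM in the E13.5 proximal libraries (-2.22 ± 0.20). Of 5 Hox genes tested, 4 were lower and none higher, all at low levels. Hoxa2 fell by 1.07 on the log2 scale, and only Hoxa3 had at least 1 RPKM in all 6 libraries. The call of Hoxa2 was lost with a constant of 1 (adjusted p = 0.0905) and with 12 libraries in the fit (adjusted p = 0.118), and 2 Hox genes were lower in 4 of the 6 fits that left out 1 library.

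Most of the oncofetal and heterochronic genes tested fell, and most imprinted growth genes were not called. Of 21 oncofetal and heterochronic genes 15 were lower and none higher (median -1.05), and 10 of 16 were lower with at least 1 RPKM in all 6 libraries. Hmga2, a chromatin protein of fetal progenitors, had 24.7, 21.8 and 19.4 RPKM in the E16.5 libraries, against 87.1, 79.5 and 81.5 RPKM in the E13.5 libraries (-1.90 ± 0.094, adjusted p = 4.34e-06). Lin28b, which blocks maturation of let-7 microRNAs, was low at both stages, with 0.328, 0.480 and 0.359 RPKM in the E16.5 libraries, against 2.32, 2.16 and 1.89 RPKM in the E13.5 libraries (-1.56 ± 0.14). The RNA binding gene Igf2bp1 averaged 23.1 ± 1.57 RPKM at E16.5 and 72.9 ± 8.23 RPKM at E13.5, while its relatives Igf2bp2 and Igf2bp3 were not called (-0.44 ± 0.069 and -0.52 ± 0.087). Sox11, a factor of immature cells, had 4.27, 3.31 and 3.42 RPKM in the E16.5 libraries, against 48.4, 55.4 and 57.7 RPKM in the E13.5 libraries (-3.71 ± 0.11), and the zinc finger gene Sall4 fell by 3.20 on the log2 scale. Of 24 imprinted growth genes 2 were higher and 8 lower (median -0.66), and with at least 1 RPKM in all 6 libraries 1 of 20 was higher and 6 were lower. Zim1, a zinc finger gene next to Peg3, fell by 3.13 on the log2 scale, and Slc22a18 rose by 1.19. Igf2 and H19 were not called, with 534 ± 35.1 RPKM at E16.5 and 522 ± 46.1 RPKM at E13.5 for Igf2. Peg3 had 37.9, 43.2 and 34.3 RPKM in the E16.5 libraries, against 305, 240.3 and 285 RPKM in the E13.5 libraries (-2.83 ± 0.12), and the growth inhibitor Grb10 averaged 42.4 ± 6.85 RPKM at E16.5 and 195 ± 21.5 RPKM at E13.5.

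Some DNA replication genes were lower, and mitotic genes were mostly not called. Of 40 replication genes 18 were lower, against 13.3% of all genes tested, and none higher (median -0.73). Of 40 mitosis genes 6 were lower, near that share, and none higher (median -0.51). Among settings that kept the minimum change of the test, the counts ran from 10 to 27 for replication and from 2 to 18 for mitosis. Neither median turned positive. Replication genes called lower numbered 10 without E16.5 library 2 or 3, and mitosis genes 10, 2 and 3 without E16.5 library 1, 2 or 3, and 18 with RPKM as deposited. Mki67, the common marker of cycling cells, had 93.6, 78.9 and 77.6 RPKM in the E16.5 libraries, against 89.2, 72.2 and 76.7 RPKM in the E13.5 libraries, and its difference of 0.07 ± 0.11 was not called and was negative with RPKM as deposited, with quantile normalization and without E16.5 library 1. The replicative helicase genes Mcm5 and Mcm7 averaged 24.0 ± 4.25 RPKM at E16.5 and 44.8 ± 2.11 RPKM at E13.5, and 50.8 ± 6.53 RPKM at E16.5 and 101 ± 3.27 RPKM at E13.5. The call of Mcm5 was lost without E16.5 library 2 or 3. Pcna was not called (-0.33 ± 0.075). The licensing factor Cdc6 had 3.98, 4.03 and 3.64 RPKM in the E16.5 libraries, against 9.02, 9.67 and 8.76 RPKM in the E13.5 libraries (-1.14 ± 0.085, adjusted p = 0.000235), and the chromatin assembly subunit Chaf1b fell by 1.33 on the log2 scale. Of the mitosis genes, Ect2 and Kif20a, which act in cytokinesis, fell by 1.05 and 0.92 on the log2 scale. Of 16 histone genes 1 was lower (Hist3h2a, a call lost without E13.5 library 3), or 3 with RPKM as deposited and without E16.5 library 1, and members of these families share sequence, so single values are uncertain. Of 18 genes of cell cycle arrest 5 were higher and none lower (median 0.51). Cdkn1c, an imprinted inhibitor of cyclin-dependent kinases, had 177, 202 and 191 RPKM in the E16.5 libraries, against 62.7, 57.3 and 57.8 RPKM in the E13.5 libraries (1.67 ± 0.082, adjusted p = 5.09e-06), and Cdkn2b rose by 1.97 on the log2 scale. Cdkn1a and Cdkn1b were not called.

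Junction and matrix genes included members that rose and members that fell. Of 25 claudin and tight junction genes 7 were higher and 2 lower (median 0.60), and with at least 1 RPKM in all 6 libraries 5 of 19 were higher and 1 lower. Cldn2 and Cldn15, which form pores for cations, rose, with 43.3, 42.0 and 49.0 RPKM of Cldn2 in the E16.5 libraries, against 1.44, 1.66 and 2.06 RPKM in the E13.5 libraries, and 18.3, 15.6 and 19.6 RPKM of Cldn15 in the E16.5 libraries, against 0.267, 0.223 and 0.155 RPKM in the E13.5 libraries. Cldn6, a claudin of embryonic epithelia, had 7.21, 9.28 and 6.61 RPKM in the E16.5 libraries, against 95.9, 91.3 and 91.6 RPKM in the E13.5 libraries (-3.52 ± 0.11, adjusted p = 2.64e-07). Cdh1 (E-cadherin) was not called (0.65 ± 0.077), and Cdh2 (N-cadherin) fell by 1.28 on the log2 scale. Of 24 basement membrane and integrin genes 4 were higher and 13 lower (median -0.88), and with at least 1 RPKM in all 6 libraries 2 of 22 were higher and 13 lower. Lama1, a laminin chain of embryonic basement membranes, had 2.26, 2.15 and 1.39 RPKM in the E16.5 libraries, against 17.4, 16.2 and 17.2 RPKM in the E13.5 libraries (-2.86 ± 0.14), and perlecan (Hspg2) and the collagens Col4a1 and Col4a2 fell by 2.09, 1.995 and 1.78 on the log2 scale. Fibronectin (Fn1), outside this group, had 6.08, 6.15 and 4.82 RPKM in the E16.5 libraries, against 84.6, 83.9 and 129 RPKM in the E13.5 libraries (-3.99 ± 0.18). The members that rose most, Nid1 and Nid2, are nidogens that mesenchymal cells make as well, with 7.18 ± 0.690 RPKM at E16.5 and 0.584 ± 0.190 RPKM at E13.5 for Nid1. The mesenchymal collagens Col1a1, Col1a2, Col3a1 and Col6a1 rose in the same libraries, Col1a1 to 9.03, 8.92 and 5.85 RPKM in the E16.5 libraries, against 2.59, 1.16 and 0.827 RPKM in the E13.5 libraries. The summed mesenchymal markers were 69.4 to 91.1 RPKM at E16.5 and 82.3 to 107 RPKM at E13.5. Of the 7 tested, 4 were higher and 1 was lower (Col5a1, a call lost in 5 of the 6 fits that left out 1 library). With at least 1 RPKM in all 6 libraries 1 of 4 was higher and their median was negative, and the part of mesenchymal RNA was not tested.

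Genes that respond to stress and tissue handling were mostly not called. Heat shock and immediate early genes numbered 25, of which 2 were higher and 1 lower (1 and 1 of 23 with at least 1 RPKM in all 6 libraries), a share below that of all genes tested, and each of the 3 calls (Klf2, Zfp36 and Egr2) was lost in at least 4 of the 6 fits that left out 1 library. Hspa1a and Hspa1b, near-identical genes whose reads can be exchanged, averaged 695 ± 131 and 707 ± 132 RPKM at E16.5 and 261 ± 189 and 264 ± 192 RPKM at E13.5 and were not called. Of 18 p53 target and stress genes 3 were higher and 1 lower (Phlda3, a call lost in 2 of those fits, and none of 17 was lower with at least 1 RPKM in all 6 libraries), with Ddit4 at 13.4 ± 0.994 RPKM at E16.5 and 5.48 ± 0.393 RPKM at E13.5 and Xbp1, a factor of secretory cells, at 66.8 ± 9.75 RPKM at E16.5 and 27.8 ± 3.97 RPKM at E13.5.

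Several large differences belonged to no group. Mamdc4, which encodes endotubin of the apical endosomes of fetal enterocytes, had 199, 254 and 311 RPKM in the E16.5 libraries, against 1.91, 2.005 and 1.77 RPKM in the E13.5 libraries (6.71 ± 0.15, adjusted p = 1.2e-07). Ckmt1, a mitochondrial creatine kinase, averaged 266 ± 20.5 RPKM at E16.5 and 3.16 ± 0.604 RPKM at E13.5, and St3gal4, a sialyltransferase, 107 ± 11.4 RPKM at E16.5 and 1.56 ± 0.549 RPKM at E13.5. Cps1 and Ass1, enzymes of arginine and urea synthesis in liver that fetal enterocytes also express, had 654, 541 and 562 RPKM for Cps1 and 53.5, 63.1 and 60.2 RPKM for Ass1 in the E16.5 libraries, against 16.9, 25.6 and 20.2 RPKM and 1.47, 1.62 and 1.97 RPKM in the E13.5 libraries. Both also stand in the liver marker list, whose other members had Ambp and Afp lower (Afp with a call lost in 4 of the 6 fits that left out 1 library) and Ttr not called. The liver list summed to 971 to 997 RPKM at E16.5 and to 560 to 571 RPKM at E13.5. Its sum includes Cps1 and Ass1, so its rise does not speak for the other members. The part of liver cells was not tested. Among the falls, Fscn1, an actin bundler, had 3.05, 2.49 and 1.87 RPKM in the E16.5 libraries, against 72.5, 70.1 and 89.6 RPKM in the E13.5 libraries (-4.72 ± 0.16, adjusted p = 5.76e-07). Igfbp2, a binding protein of insulin-like growth factors, had 1.75, 2.29 and 4.40 RPKM in the E16.5 libraries, against 86.4, 54.2 and 82.9 RPKM in the E13.5 libraries (-4.55 ± 0.35). Tdh, Tmem215, Zbtb16, Tubb4a and Sh3bgr fell by 4.19, 4.12, 3.98, 3.94 and 4.25 on the log2 scale.

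The distal epithelium served to test for which genes the proximal stage difference departed from the distal one. The stage difference in proximal minus that in distal was tested over 12 libraries, rescaled together, with the mother as a block. A factor common to a table cancels in it. The difference in section size between the stages need not cancel, and its part cannot be told apart from age. Of 12976 genes, 161 (1.24%) had a higher and 43 (0.331%) a lower value in proximal, in all 1.57%, so for most genes no difference between the regions was detected. Without the libraries of 1 E16.5 mother 84 to 97 genes were higher and 21 to 26 lower, without those of 1 E13.5 mother 132 to 191 were higher and 33 to 72 lower, and limma-voom called 92 lower. Fabp1 gave the largest positive value of the called genes on this scale, and Mme did with a constant of 0.1 and with limma-voom. Its distal levels were 1.88, 0.869 and 2.14 RPKM in the E16.5 libraries, against 8.92, 2.19 and 1.80 RPKM in the E13.5 libraries, with no call in distal (adjusted p = 0.551). The proximal minus distal difference was 6.58 ± 0.72 (adjusted p = 0.0374), a call lost in 5 of the 6 fits that left out the libraries of 1 mother. From here on and in the next paragraph, a difference in parentheses after the levels of a gene is this proximal minus distal difference. Lct had 0.694, 0.797 and 2.82 RPKM in the distal E16.5 libraries, against 0.583, 0.413 and 0.359 RPKM in the distal E13.5 libraries (5.47 ± 0.28, adjusted p = 0.000119). Mme, the peptidase neprilysin, had 0.0545, 0.0378 and 0.103 RPKM in the distal E16.5 libraries, against 0.690, 0.804 and 0.179 RPKM in the distal E13.5 libraries (5.03 ± 0.28, adjusted p = 0.000119). None of these 3 genes was called in distal. Adh1, Alpi and Apoa4 rose in both regions and more in proximal, by 4.40 ± 0.24 (adjusted p = 0.00037), 2.75 ± 0.25 (adjusted p = 0.00232) and 2.49 ± 0.33 (adjusted p = 0.0472). The call of Alpi was lost with limma-voom (adjusted p = 0.681), and that of Apoa4 with limma-voom and in 5 of 6 such fits. Fcgrt, the neonatal Fc receptor that takes up antibodies from milk in rodents, had 1.63, 2.80 and 5.70 RPKM in the distal E16.5 libraries, against 1.49, 1.29 and 0.692 RPKM in the distal E13.5 libraries, while its proximal levels were 48.5, 75.3 and 77.7 RPKM in the E16.5 libraries, against 1.70, 2.11 and 2.11 RPKM in the E13.5 libraries (3.63 ± 0.32, adjusted p = 0.00325). Olfm4 had 1.06, 1.17 and 1.44 RPKM in the distal E16.5 libraries, against 0.331, 0.632 and 0.424 RPKM in the distal E13.5 libraries (3.82 ± 0.27, adjusted p = 0.00037). Rbp2 had a proximal minus distal difference of 5.01 ± 0.63 and missed the threshold (adjusted p = 0.0501).

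**Figure D5:**
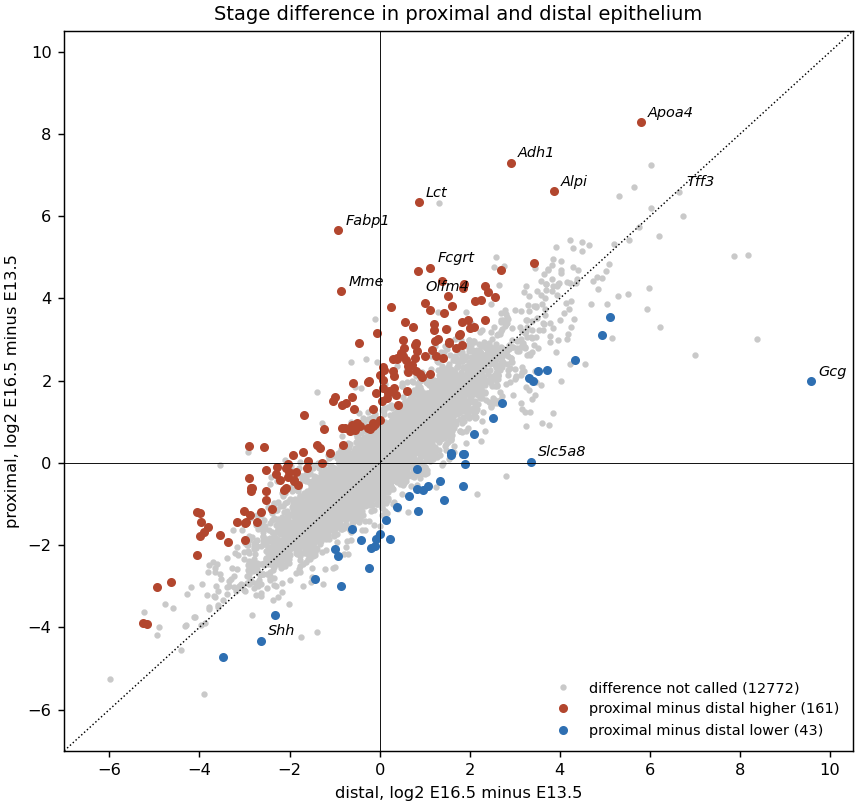
Log2 difference, E16.5 minus E13.5, of 12976 genes in proximal epithelium (vertical axis) against distal epithelium (horizontal axis), with the dotted line for equal differences. Red marks the 161 genes and blue the 43 genes whose proximal minus distal difference was called higher or lower. Fabp1, Lct and Mme lie at -0.92, 0.87 and -0.85 on the distal axis and above 4 on the proximal axis, and Shh is negative on both axes.

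Genes entered the test of proximal minus distal with at least 1 RPKM in 3 of the 12 libraries. A gene present in only 1 group of 3 libraries could enter through that group and then had to differ. No count was made among genes with at least 1 RPKM in all 12 libraries, so the part of this filter was not tested. By group, 6 of 21 lipid absorption genes, 5 of 22 detoxification genes, 5 of 26 transporters and 4 of 17 hydrolases were higher in proximal, against 1.24% of all genes, and 1 hydrolase, Naaladl1, was lower. Without the libraries of 1 mother these counts were 1 to 5, 3 to 5, 2 to 6 and 3 to 5, with the fewest lipid genes without E16.5 mother 1 or 2, and Naaladl1 was not called with limma-voom. None of 13 goblet genes was called (at most 3 were without the libraries of 1 mother), and Tff3 gave a value of -0.04. None of 28 fatty acid oxidation genes and none of 40 replication genes was called either. Only 1.57% of all genes were called in this test, so the lack of calls in groups of this size does not set them apart. Shh fell in both regions and more in proximal: distal levels were 23.2, 28.3 and 15.97 RPKM in the E16.5 libraries, against 131, 131 and 153 RPKM in the E13.5 libraries, and the proximal minus distal difference was -1.69 ± 0.12 (adjusted p = 0.000989). It was the only Hedgehog gene of 11 with such a difference. Of 22 Wnt targets Myc, Ccnd2 and Zfp703 were lower in proximal (1 to 4 targets without the libraries of 1 mother), with differences of -1.76, -1.64 and -0.99, and Myc and Ccnd2 were higher at E16.5 in distal. Slc5a8, a transporter of short-chain fatty acids, rose in distal and stayed under 1 RPKM in proximal, with 0.0726, 0.0743 and 0.0998 RPKM in the proximal E16.5 libraries, against 0.0498, 0.0696 and 0.0966 RPKM in the proximal E13.5 libraries, and with 5.70, 6.26 and 6.56 RPKM in the distal E16.5 libraries, against 0.118, 0.308 and 0.0475 RPKM in the distal E13.5 libraries (-3.33 ± 0.24, adjusted p = 0.00037). Nes, the intermediate filament nestin, had 37.6, 42.0 and 35.1 RPKM in the distal E16.5 libraries, against 11.8, 18.2 and 12.1 RPKM in the distal E13.5 libraries, and averaged 3.91 ± 1.08 RPKM at E16.5 and 7.71 ± 2.01 RPKM at E13.5 in proximal (-2.33 ± 0.18, adjusted p = 0.00127). Gcg reached 396, 381 and 395 RPKM in the distal E16.5 libraries, while the distal E13.5 libraries had 0.0383, 0 and 0 RPKM. With a group at or near 0 the fitted value of -7.59 depends on the constant added before taking logarithms, and the call (adjusted p = 0.0494) was lost in 5 of the 6 fits that left out the libraries of 1 mother.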

How the data were processed

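RNA-seq was measured in 54 libraries of sorted intestinal cells, of which 12 were used here. According to the labels and the methods of the study, the authors made stranded total RNA libraries, aligned reads to mm10, counted them per RefSeq gene with featureCounts, keeping multi-mapped reads, filtered and scaled each table on its own with edgeR, and deposited RPKM. The deposited log2 mean columns and gene length were not tested, and length served to recover reads from RPKM. Reads came out whole for 100% of values (tolerance 0.01).

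The tables hold 16901 (E16.5) and 14783 (E13.5) genes, 14586 in both. RPKM were divided by 1 median ratio per library, 0.925 to 0.942 at E16.5 and 1.06 to 1.07 at E13.5. Genes with at least 1 RPKM in 3 libraries entered a limma fit (version 3.58.1, R 4.3.3) of log2(RPKM + 0.5). Moderation used the trend and robust options, and the test was treat with a minimum change of 0.5, and Benjamini-Hochberg adjustment at 0.05. The fit was tested on simulated data. Same-numbered libraries of both regions deviated together (r of 0.230, 0.129 and 0.213 at E16.5 and 0.313, 0.104 and 0.192 at E13.5), and the study's model names the number as the mother, which was the block in the test of proximal against distal. The stage comparison had no block. Replicate libraries differed by more than counting noise in every pair, so none was merged.

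Members and gene lists were chosen with earlier results of these data known. Named genes were the 12 called genes of largest change in each direction whose libraries did not overlap (unnamed gene models and small RNAs left out), up to 2 called members of each list in each direction, a set of anchor genes, and the 6 called genes of largest difference in each direction between proximal and distal. Other list members are named as examples chosen after their values were seen. Some genes that the rule names are not reported here. Alternatives varied the scaling, the constant, the filter, the test, the block, the libraries and the pancreatic enzyme genes.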

Additional observations from a re-analysis of the deposited data

Results flagged for a closer look

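For 15 of the named genes the stage difference in proximal epithelium departed from that in distal epithelium by the test of the difference itself (limma, proximal minus distal, 12 libraries). It was larger in proximal for Fabp1 (6.58), Lct (5.47), Mme (5.03), Adh1 (4.40), Olfm4 (3.82), Fcgrt (3.63), Alpi (2.75) and Apoa4 (2.49). It was lower in proximal for Gcg (-7.59), Slc5a8 (-3.33), Itgb7 (-2.42), Nes (-2.33), Tox2 (-2.32), Cbln2 (-2.14) and Shh (-1.69). All but Alpi, Apoa4 and Shh were among the 6 called genes of largest difference in each direction. That rule uses this same test, so the count of 15 was largely set by it and is not a result about named genes. The calls of Fabp1, Apoa4 and Gcg were lost in most fits that left out the libraries of 1 mother. Itgb7, an integrin chain, had 5.28, 6.48 and 5.33 RPKM in the distal E16.5 libraries, against 0.844, 1.95 and 0.994 RPKM in the distal E13.5 libraries, and in proximal 1.70, 2.05 and 1.91 RPKM in the E16.5 libraries, against 1.77, 3.50 and 4.26 RPKM in the E13.5 libraries (adjusted p = 0.00361). Tox2, an HMG box factor, fell in proximal to 0.627, 0.439 and 0.556 RPKM in the E16.5 libraries, against 3.42, 6.32 and 7.86 RPKM in the E13.5 libraries. Its call (adjusted p = 0.0438, and 0.392 at most over the alternatives) was lost in 4 of the 6 fits that left out the libraries of 1 mother. Cbln2, a secreted cerebellin, had 0.0503, 0.0514 and 0.0201 RPKM in the proximal E16.5 libraries, against 2.60, 6.01 and 3.48 RPKM in the proximal E13.5 libraries (adjusted p = 0.00235, and 0.138 at most over the alternatives).

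The genes of pancreatic enzymes, which entered the comparison of stages only in 1 alternative, summed to between 1052 and 2196 RPKM in the proximal E16.5 libraries, above the distal epithelium of the same stage (26.1 to 28.9 RPKM). Of 2315 genes with a value in the E16.5 table only, 89 averaged at least 10 RPKM in proximal epithelium and entered no comparison.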

How the results depend on the processing

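The counts of genes that were higher or lower at E16.5 stayed within 1.5 times under each alternative except the test with no minimum change, which called 4219 higher and 4348 lower. Quantile normalization gave 1845 higher and 1919 lower. Leaving out 1 library gave 1823 to 2032 higher and 1452 to 1615 lower genes. For proximal minus distal, limma-voom on recovered reads called 92 lower genes, and leaving out the libraries of 1 mother gave 84 to 191 higher and 21 to 72 lower genes. Library numbers did not pair the stages (correlations of -0.088, -0.069 and -0.166 between same-numbered libraries). With the number as a replicate block 1946 genes were higher and 1523 lower, and without the mother as a block 148 genes were higher and 37 lower in proximal minus distal, where Apoa4 and Cbln2 had adjusted p of 0.0986 and 0.138 (limma).

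Of 151 named genes, those whose stage call was lost numbered 11 with 12 libraries in the fit, 8 with a constant of 1, 7 with RPKM as deposited, 6 with quantile normalization, 5 with limma-voom, and 4 to 14 with 1 library left out. Signs changed only for genes that were not called. With RPKM as deposited and with quantile normalization the differences were -0.076 and -0.064 for Cdx2, -0.17 and -0.13 for Pdx1, and -0.12 and -0.15 for Mki67. With 1 library left out Ihh ranged over -0.31 to 0.020, Pdx1 -0.092 to 0.072 and Mki67 -0.0089 to 0.15. For proximal minus distal, Axin2 was -0.0088 with a constant of 1 and -0.0070 with limma-voom. With the libraries of 1 mother left out it ranged over -0.37 to 0.26, Mki67 over -0.14 to 0.042 and Cdkn1c over -0.20 to 0.052. The cause was not tested. Depth limits genes near 1 RPKM, and stage, table, experiment and section size cannot be told apart.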

Other observations

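Genes with a value only in the E16.5 table include genes of secretory cell types whose partners were tested above. Their values are RPKM as deposited for E16.5 libraries 1, 2 and 3, without a comparison. Among hormones, Ghrl (ghrelin) had 333, 495 and 410.1 RPKM, Sst (somatostatin) 153, 178 and 166 RPKM and Gip (the incretin GIP) 107, 124 and 189 RPKM. Goblet cell genes included Spink4 with 225, 295 and 329 RPKM, Clca1 with 101, 159.5 and 194 RPKM and Muc2, the main gel-forming mucin, with 17.4, 25.7 and 28.9 RPKM. Guca2a, the gene of guanylin, had 52.2, 68.7 and 72.6 RPKM. The alpha defensin genes Defa17, Defa24 and Defa3, which share near-identical sequence so that their reads cannot be assigned with certainty, had 70.0, 91.4 and 125 RPKM, 75.0, 85.3 and 122 RPKM and 68.8, 89.8 and 122 RPKM. Apoc2 and Apoc3, apolipoproteins that regulate lipoprotein lipase, had 63.5, 75.9 and 95.9 RPKM and 56.5, 68.7 and 71.8 RPKM, and Creb3l3, a liver and intestine factor of lipid genes, 46.5, 57.3 and 59.3 RPKM. Ins2 and Iapp, hormones of pancreatic beta cells, had 78.4, 75.6 and 46.7 RPKM and 30.7, 28.3 and 21.9 RPKM in the same libraries, in which pancreatic enzymes were also high.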
